A study of Mus musculus with 2 samples.

Results

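Scavenger and efferocytosis receptors were followed across the leukocytes of the atherosclerotic mouse aorta. They are a set of 10 genes, Cd36, Msr1, Marco, Scarb1, Scarb2, Cd68, Stab1, Lrp1, Mertk and Axl, chosen by symbol as receptors for modified lipoprotein, oligonucleotides and dying cells, and all 10 were found among the 31053 genes of the count table. All 10 had at least 20 unique molecular identifiers (UMIs, each standing for 1 captured transcript) and so entered the counts below, as did 14202 genes in all. Marco passed that minimum only through cluster 19, which held 62 of its 81 UMIs. The mice of both groups were Apoe-/-, which lack apolipoprotein E and develop plaques, and both groups ate a western diet for 4 weeks. One group received saline and the other nt-LNA at 30 mg/kg, weekly in both. Live CD45+/CD3- cells of the digested aortic arch and thoracic aorta were profiled by 10x single-cell 3′ RNA sequencing, with 1 library per treatment. How many animals each library pools, and their age and sex, are not stated in the labels.

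The 7613 cells (2742 saline, 4871 nt-LNA) fall into 20 deposited clusters with 70206506 UMIs, and cluster totals ran from 212515 to 12985745. Counts pool both libraries within a cluster, so receptor levels between treatments within a cluster are not analysed here. Levels are given as CPM, the UMIs of a gene scaled to 1000000 UMIs of its cluster, with the exact Poisson 95% interval in parentheses where it is printed. The intervals cover counting error only. There is no biological replicate, and no test was made. A cluster total cannot tell fewer expressing cells from less RNA per expressing cell. The deposited cell table calls 9 clusters Macrophages (0, 6, 7, 8, 10, 15, 17, 18 and 19) and 11 B, T or NK cells. By their leading genes, 7 is neutrophil-like, 8 mature dendritic cell-like, 15 nonclassical monocyte-like, 17 type 1 dendritic cell-like, 18 plasmacytoid dendritic cell-like, 6 proliferating-like and 19, with only 27 cells, serous cavity macrophage-like. Clusters 0 and 10 are left without a name. Ptprc, which encodes CD45, ran from 295 to 2080.2 CPM over the clusters, and Cd3e, a chain of the CD3 complex sorted against, from 10.7 to 1331, highest in T cell clusters. Markers of the macrophage list (Adgre1, the 3 C1q chains, Mrc1, Csf1r and Fcgr1) summed to 6214 CPM in cluster 0, 7035 in cluster 19, 1579 in cluster 10, 1311 in cluster 7 and 903 in cluster 15. The smooth muscle list summed to 476 CPM in cluster 0, with 6 of its 6 members among the 50 leading genes there, and to at most 36 elsewhere. The fibroblast list summed to 133 CPM in cluster 0 and at most 51.8 elsewhere. The part of these vessel wall transcripts in the levels of cluster 0 was not tested.

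Scavenger receptors are cell surface or endosomal proteins that bind modified lipoproteins, polyanions and debris and carry them inward, and uptake of modified low density lipoprotein turns plaque macrophages into foam cells. Efferocytosis is the engulfment of dying cells. It runs partly through the kinases Mertk and Axl, which reach phosphatidylserine on the dying cell by way of the bridging proteins Gas6 and protein S, and partly through receptors such as Lrp1 and the stabilins. Stabilins and several other scavenger receptors are also known to take up chemically modified oligonucleotides.

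Promoters of 4 receptors are printed because their transcripts spread over the clusters in 4 different ways: Stab1 was led by cluster 0, Cd68 was higher in all 9 Macrophages clusters than in any other, Marco had most of its UMIs in cluster 19, and Scarb2 was present in every cluster. Each is the stretch of 250 bases before the RefSeq start (build GRCm38.p6, minus strand, 5′ to 3′), and capitals mark the letters GAGGAA, the core recognised by PU.1, the myeloid transcription factor encoded by Spi1. Stab1 lies at chr14:31168642-31168891, Cd68 at chr11:69666171-69666420, Marco at chr1:120505025-120505274 and Scarb2 at chr5:92505658-92505907.
Stab1: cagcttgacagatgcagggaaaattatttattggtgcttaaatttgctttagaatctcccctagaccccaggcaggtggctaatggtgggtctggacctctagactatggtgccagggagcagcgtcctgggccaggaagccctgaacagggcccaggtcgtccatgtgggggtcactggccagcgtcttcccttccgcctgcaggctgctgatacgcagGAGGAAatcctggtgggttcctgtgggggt
Cd68: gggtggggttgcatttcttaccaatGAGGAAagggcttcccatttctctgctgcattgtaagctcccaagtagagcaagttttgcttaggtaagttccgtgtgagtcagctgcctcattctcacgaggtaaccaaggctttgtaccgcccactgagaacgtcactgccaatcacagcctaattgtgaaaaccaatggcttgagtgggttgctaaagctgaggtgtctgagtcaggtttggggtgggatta
Marco: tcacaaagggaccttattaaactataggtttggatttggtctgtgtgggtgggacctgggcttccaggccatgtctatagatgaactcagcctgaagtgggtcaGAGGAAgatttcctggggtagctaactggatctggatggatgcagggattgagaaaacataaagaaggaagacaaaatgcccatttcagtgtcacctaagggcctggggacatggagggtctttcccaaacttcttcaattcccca
Scarb2: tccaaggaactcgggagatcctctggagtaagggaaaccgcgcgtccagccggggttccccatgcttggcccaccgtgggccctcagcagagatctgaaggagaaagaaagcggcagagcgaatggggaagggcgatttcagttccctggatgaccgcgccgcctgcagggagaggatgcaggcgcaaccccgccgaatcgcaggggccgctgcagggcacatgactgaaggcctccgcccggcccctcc
The match lay 25 to 30 bases upstream of the start in Stab1, 220 to 225 in Cd68 and 141 to 146 in Marco, and Scarb2 had none on either strand. Of the 10 receptors 8 were found in the promoter table (Msr1 and Scarb1 were not), and 4 of those 8, with Axl on its opposite strand, held GAGGAA on at least 1 strand. The same letters occur in 23.3% of 32851 mouse promoters of the same length. The AP-1 letters TGANTCA, found in 6.75% of promoters, occurred at 2 places in the Cd68 promoter and in none of the other 7. Of the other letters searched on both strands, AGGTCA, the core of nuclear receptor sites (14% of promoters), was found in Cd36, and CACGTG, the E-box of the TFEB and MITF family (6.02%), in none of the 8. No match overlapped another. The Scarb2 stretch had 65.6% G and C with 19 CG pairs and that of Marco 47.6% with 0 CG pairs, against medians of 52.4% and 6 over all promoters. These are matches of letters and not measured binding sites.

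Clusters 0, 10, 15 and 19, chosen with the receptor levels known, held more of the receptor transcripts than of all UMIs. High shares there follow in part from that choice and are a description. These clusters held 19.2% of all cells and 30.2% of all UMIs. They held 98.8% of the Marco UMIs, 88.2% of Msr1, 86.4% of Mertk, 85.8% of Stab1, 81.1% of Lrp1, 71.7% of Axl, 70.9% of Cd68 and 67.8% of Cd36, but 53.4% of Scarb1 and 45.3% of Scarb2. The Marco share was largely fixed by its entry through cluster 19. Not every receptor was raised in each of the 4 clusters. In cluster 15, Msr1, Stab1 and Mertk were at 0.80, 0.637 and 0.56 times the mean of the others. The 4 clusters had different but overlapping sets of high receptors, where high means over 2-fold above the mean CPM of the other 19 clusters. Lrp1 was high in all 4, and every high receptor of cluster 0 was also high in cluster 10. Cluster 10 had 7 of 10 (Msr1, Scarb1, Cd68, Stab1, Lrp1, Mertk and Axl), where 7.37% of all genes tested were that high. Cluster 19 had 6 (Cd36, Msr1, Marco, Stab1, Lrp1 and Mertk), against 9.06% of all genes, or 5 of 9 without Marco, which entered only through this cluster. In cluster 0 the count was 5 (Cd68, Stab1, Lrp1, Mertk and Axl), against 8.21%, and in cluster 15 it was 4 (Cd36, Scarb1, Cd68 and Lrp1), against 7.46%.

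The other clusters deposited as Macrophages were counted in the same way. In the type 1 dendritic cell-like cluster 17, Cd36 and Scarb1 were high (2 of 10, against 6.24% of all genes), and in the plasmacytoid dendritic cell-like cluster 18, Scarb1 and Cd68 (2 of 10, against 9.57%). The mature dendritic cell-like cluster 8 had Axl alone (6.26% of all genes), the neutrophil-like cluster 7 had Stab1 alone (7.28%), and the proliferating-like cluster 6 had none (8.32%). None of the 10 receptors was over 2-fold higher in any of the 11 clusters of B, T and NK cells. Among all genes that share was 3.7% in cluster 1, 11.9% in cluster 2, 5.83% in cluster 3, 3.77% in cluster 4, 20.8% in cluster 5, 13.3% in cluster 9, 6.63% in cluster 11, 3.7% in cluster 12, 11% in cluster 13, 22.1% in cluster 14 and 16.6% in cluster 16. Counts of lower receptors leave out Marco, whose low level outside cluster 19 is fixed by that cluster, and so refer to the other 9. All 9 were over 2-fold lower in clusters 1, 4 and 11, where 35.7%, 40.4% and 33.8% of all genes were, and 8 in clusters 3, 9, 12 and 13, where 31.5%, 30.1%, 21.7% and 28.3% were. In clusters 2, 5, 14 and 16 the count was 7, against 31.8%, 29.5%, 30.1% and 41.3% of all genes. Depth limits several of these counts, since the upper end of a receptor's own Poisson interval was also over 2-fold below the mean of the other clusters for 9 receptors in clusters 1 and 4, 8 in clusters 3 and 12, 6 in clusters 2 and 11, 5 in clusters 9 and 13 and 3 in clusters 5 and 14. In cluster 16 it was so for Cd68 alone, and 5 receptors had 0 UMIs there with an upper limit of 17.4 CPM, so a 2-fold lower level was mostly not detectable at this depth. Among the Macrophages clusters none of the 9 was over 2-fold lower in clusters 19, 0, 7, 10 and 15, where 28.8%, 8.18%, 25.7%, 23% and 29.4% of all genes were. The count was 3 in cluster 8 (25% of all genes), 3 in cluster 17 (36.2%), 4 in cluster 18 (36.2%) and 6 in cluster 6 (28.2%), and for 2, 2, 1 and 5 of these the interval lay below that level too. The median log2 ratio is likewise given for the 9 receptors without Marco. In cluster 10 it was 1.96, the value of Mertk (all genes -0.29), and in cluster 0 it was 1.19, that of Cd68 (all genes -0.09). In cluster 19 it was 1.14, that of Stab1 (all genes -0.35), and in cluster 15 it was 0.90, that of Axl (all genes -0.33). The choice of reference moved these counts. Against the median of the other clusters, cluster 0 and cluster 15 each had 8 high receptors, and 5 receptors were high in at least 1 B, T or NK cell cluster. Against the other Macrophages clusters cluster 0 had 3, and with the proliferating-like cluster 6 also left out of that reference clusters 0, 10 and 15 had 3, 3 and 2. Counted as UMIs per cell, all 10 were high in cluster 19, whose cells had the most UMIs. The shares of all genes that high were not counted under these other references and scales. These counts therefore have no background to be read against.

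**Figure D1:**
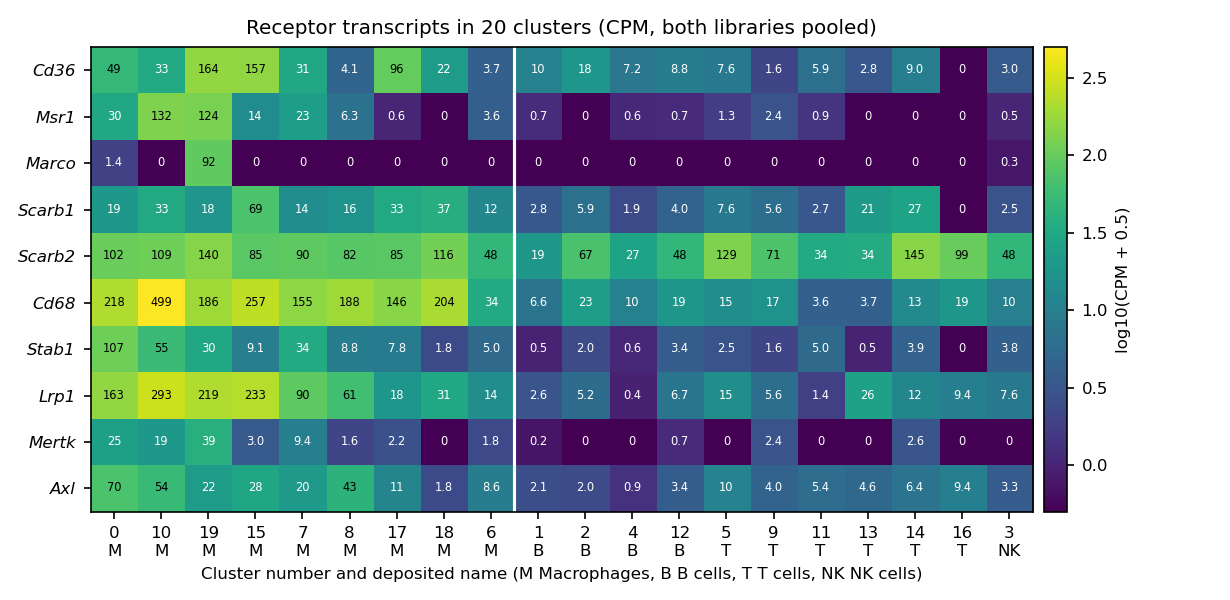
Receptor transcripts by cluster. Rows are the 10 receptors, columns the 20 clusters with their deposited names, each cell gives the CPM and colour its log10 after adding 0.5. The high values of most rows lie left of the white line, in clusters deposited as Macrophages, while Scarb2 is present on both sides and Marco stands out in 1 column, cluster 19, at 92.3 CPM.

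Cd36, a class B scavenger receptor that binds oxidised low density lipoprotein and long chain fatty acids, was highest in clusters 19 and 15. Cluster 19 had 164 CPM (135–197), cluster 15 had 157 CPM (136–179.9) and cluster 17 had 96.2 CPM (82.3–112). It stood at 49.2 CPM in cluster 0, 32.8 in cluster 10, 31 in cluster 7, 22.1 in cluster 18, 4.12 in cluster 8 and 3.66 in cluster 6. Levels in the first 3 clusters were 6.62, 6.25 and 3.4 times the mean of the other clusters. The difference between clusters 19 and 15 was within counting error, a ratio of 1.04 (0.82–1.32), and cluster 15 stood above cluster 17 by a factor of 1.63 (1.33–2.01). Clusters 0 and 10, which led other receptors, were at 1.6 and 1.04 times the mean of the rest. Over the B, T and NK cell clusters Cd36 ran from 0 to 18.3 CPM, with a median of 7.17. The top of that range was cluster 2, of B cells.

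Scarb1 encodes the high density lipoprotein receptor SR-BI, which mediates selective exchange of cholesteryl ester. The nonclassical monocyte-like cluster 15 was highest at 69.3 CPM (55.8–85.1), 5.0 times the mean of the others and 1.88 (1.15–3.22) times the next cluster, 18. Clusters 18 (36.8 CPM), 17 (33), 10 (32.9), 14 (27) and 13 (21.1) followed, with each neighbouring pair within counting error. Clusters 0 (19.3 CPM), 19 (17.9), 8 (16.3), 7 (14.4) and 6 (11.7) were lower. The CPM of the T cell clusters 13 and 14 thus lay within the range of the Macrophages clusters, whereas the median of the 11 B, T and NK cell clusters was 4.04 CPM. Counted per cell, cluster 14 had 0.106 UMIs, below the lowest Macrophages cluster, 7, at 0.135, and cluster 13 had 0.188. Cluster 14 had 3935 UMIs per cell and a mitochondrial share of 11.2%, whose part in its CPM was not tested.

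Scarb2 encodes LIMP-2, a lysosomal membrane protein of the same family that carries glucocerebrosidase to the lysosome. It was the receptor with the flattest profile. The top cluster held 9.19% of its CPM summed over clusters, against a median of 25.2% for the 10 receptors and 14.8% for all genes tested. It stood at 145 CPM (119.5–174) in the T cell cluster 14, 140.0 CPM (113–171) in cluster 19, 129 in cluster 5, 116 in cluster 18, 109 in cluster 10 and 102 in cluster 0. No neighbouring pair among these was separated by its interval. The lowest level of the Macrophages clusters was 48.1 CPM in cluster 6, and clusters 7, 17, 15 and 8 lay between 81.6 and 89.9 CPM. The B, T and NK cell clusters ran from 19 CPM in cluster 1 to the value of cluster 14, with a median of 47.8. Clusters 5 and 14 had few UMIs per cell, 1278 and 3935 on average. They also had high mitochondrial shares, 7.24% and 11.2%, and the part of these in their CPM was not tested. Counted per cell, cluster 19 led with 3.48 UMIs of Scarb2 and cluster 14 had 0.571.

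Msr1, the class A scavenger receptor known for uptake of acetylated and oxidised lipoprotein, was highest in clusters 10 and 19. Cluster 10 had 132 CPM (123–141) and cluster 19 had 124 CPM (98.5–153), 12 and 10.9 times the means of their other clusters. They did not differ beyond counting error, with a ratio of 1.07 (0.849–1.35), and cluster 19 had 4.14 (3.22–5.26) times the level of the third, cluster 0. Lower down came clusters 0 (29.9 CPM), 7 (23.2), 15 (13.7), 8 (6.28), 6 (3.56) and 17 (0.559). Counted per cell, cluster 19 led with 3.07 UMIs and cluster 10 had 2.29. Cluster 10 alone held 55.3% of all Msr1 UMIs. Cluster 15, high in Cd36, was thus at 0.80 times the mean of the others for Msr1. No Msr1 UMI was counted in cluster 18, a depth at which 3 counts would be 5.53 CPM. The B, T and NK cell clusters ran from 0 to 2.4 CPM, with a median of 0.573.

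Marco, a class A receptor of certain tissue and marginal zone macrophages that binds bacteria and particles, was counted in only 3 clusters. Cluster 19 had 92.3 CPM (70.8–118) from 62 UMIs, cluster 0 had 1.39 CPM (0.822–2.19) from 18 UMIs and the NK cell-like cluster 3 had 1 UMI. Cluster 19 exceeded cluster 0 by a factor of 66.6 (38.9–119.7), and it held 98.2% of Marco CPM summed over clusters. In cluster 10, the top cluster of Msr1, Marco had 0 UMIs, where 3 counts would be 0.482 CPM. The 27 cells of cluster 19 were 5 of the saline and 22 of the nt-LNA library. Pf4, a platelet gene that some macrophages also express, stood at 2636 CPM in cluster 19. The platelet markers Ppbp, Itga2b, Gp9 and Gp1ba were all at 0 CPM in cluster 19, where 3 counts would be 4.47 CPM. Over all clusters they had only 17, 66, 0 and 7 UMIs. The part of platelet RNA was not tested.

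Cd68 encodes macrosialin, a heavily glycosylated protein of late endosomes and lysosomes used as a macrophage stain. It was highest in cluster 10 at 499 CPM (481–517), 6.21 times the mean of the others and 1.94 (1.74–2.18) times the level of cluster 15. Cluster 15 had 257 CPM (230.1–286) and cluster 0 had 218 CPM (209.7–226). Clusters 18 (204 CPM), 8 (188), 19 (186), 7 (155) and 17 (146) came next. Cluster 15 stood above cluster 0 by a factor of 1.18 (1.05–1.32), while the pairs 0 and 18, 18 and 8, and 8 and 19 were not separated. Cluster 6 was the lowest Macrophages cluster at 33.8 CPM. All 9 Macrophages clusters lay above every B, T or NK cell cluster, which ran from 3.63 to 22.9 CPM with a median of 12.8. Cd68 therefore marked dendritic cell-like and neutrophil-like clusters as well as those rich in the macrophage list.

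Stab1 encodes stabilin-1, a clearance receptor of resident macrophages and sinusoidal endothelium that sends its ligands to the lysosome. It was highest in cluster 0 at 107 CPM (102–113), 11.7 times the mean of the others, and this cluster held 67.7% of its UMIs. Cluster 10 followed at 54.8 CPM (49.1–60.9), with cluster 0 above it by a factor of 1.96 (1.74–2.21). Clusters 7 (34 CPM) and 19 (29.8) came next, a pair within counting error, and clusters 15 (9.14), 8 (8.79), 17 (7.83), 6 (4.97) and 18 (1.84) were all under 10 CPM. The B, T and NK cell clusters ran from 0 to 4.99 CPM, with a median of 1.96. In the neutrophil-like cluster 7, whose Stab1 was 2.61 times the mean of the others, C1qa, a complement gene of macrophages, stood at 16.8% of its level in cluster 0 and Stab1 at 31.7%. The part of macrophage RNA in that level was not tested. The endothelial list summed to 52.6 CPM in cluster 0 and was highest in cluster 18 at 184. The part of endothelial RNA in the Stab1 levels was not tested.

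Stab2, the sister gene of Stab1 and a receptor for hyaluronan and for modified oligonucleotides, had another distribution. Of its 106 UMIs, 53 were in cluster 11, deposited as T cells and left without another name, and 27 in cluster 16, which is like group 2 innate lymphoid cells (ILC2). Cluster 16 had 127 CPM (83.7–185) and cluster 11 had 24 CPM (18–31.4), whereas cluster 0 had 0.77 CPM (0.369–1.42). Stab1 had 0 UMIs in cluster 16, where 3 counts would be 14.1 CPM, and 4.99 CPM in cluster 11. Cluster 16 had 1897 UMIs per cell on average and a mitochondrial share of 8.42%, whose part in its CPM was not tested. The 2 stabilins were thus highest in different clusters.

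Lrp1, a large endocytic receptor that clears apolipoprotein E-bearing remnants and recognises calreticulin on dying cells, was high in 4 clusters. Its level was 293 CPM (279.9–307) in cluster 10, then 233 CPM (208–261) for cluster 15, 219 CPM (185–257) for cluster 19 and 163 CPM (156–169.8) for cluster 0. These were 6.05, 4.52, 4.18 and 2.94 times the means of the other clusters. Cluster 10 stood above cluster 15 by a factor of 1.26 (1.11–1.42), and clusters 15 and 19 were within counting error at a ratio of 1.06 (0.872–1.31). Counted per cell, cluster 19 had 5.44 and cluster 10 5.1 UMIs. Lower levels were 89.9 CPM in cluster 7, 60.6 in cluster 8, 31.3 in cluster 18, 18.4 in cluster 17 and 14.4 in cluster 6. The type 1 dendritic cell-like cluster 17, high in Cd36 and Scarb1, was therefore at 0.293 times the mean of the rest for Lrp1. The B, T and NK cell clusters ran from 0.43 to 25.7 CPM, with a median of 6.73, and their highest was the T cell cluster 13. Smooth muscle cells and fibroblasts also express Lrp1, and their marker lists were highest in cluster 0. The smooth muscle list came to 9.96 CPM for cluster 10 and 6.86 for cluster 15, and both clusters had more Lrp1 than cluster 0. The part of RNA from smooth muscle cells and fibroblasts in the Lrp1 level of cluster 0 was not tested. Lrpap1, the chaperone of Lrp1 in the endoplasmic reticulum, stood at 114 CPM in cluster 10, 113 in cluster 19, 64.2 in cluster 0 and 64 in cluster 15, and its highest value was 118 CPM in cluster 14.

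**Figure D2:**
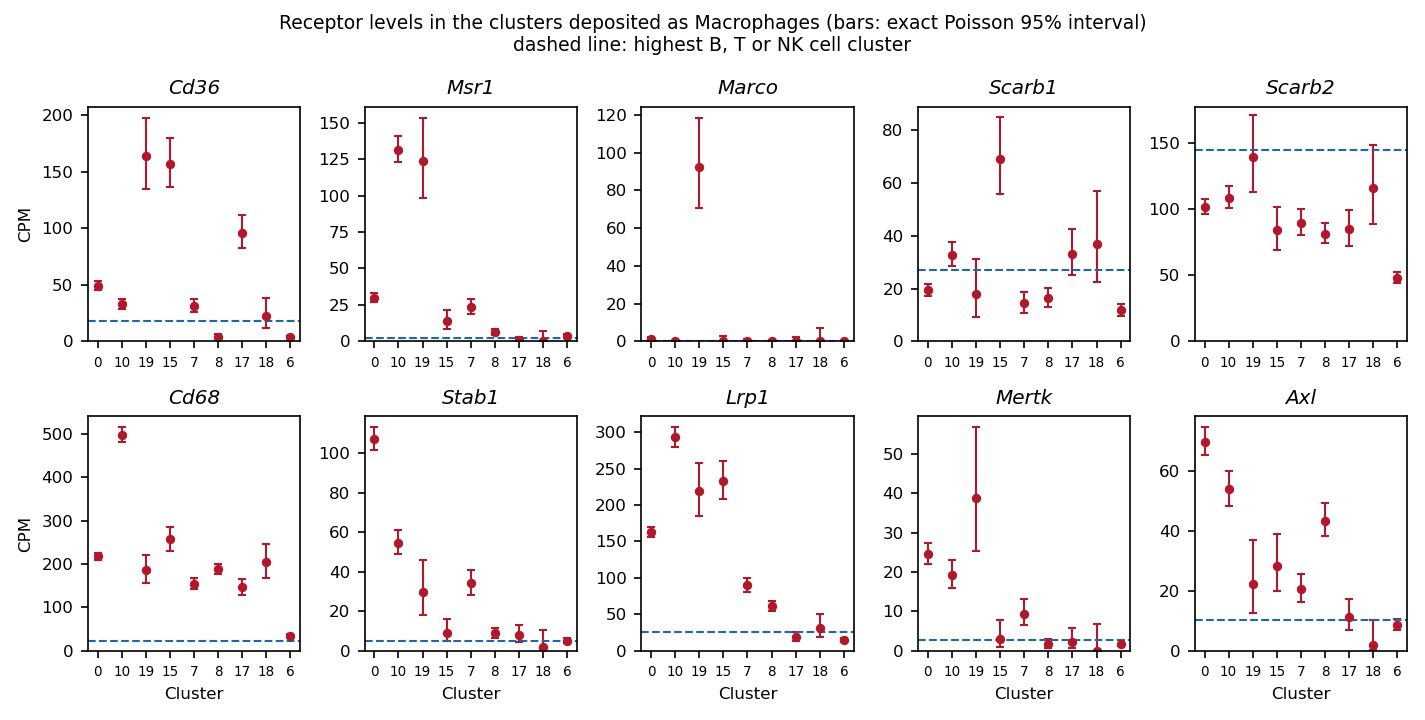
Receptor levels in the clusters deposited as Macrophages. Each panel is a receptor with its own CPM axis from 0, points are clusters, bars the exact Poisson 95% interval, and the dashed line the highest B, T or NK cell cluster. Stab1 and Axl peak in cluster 0, Msr1, Cd68 and Lrp1 in cluster 10, Scarb1 in cluster 15 and Cd36, Marco and Mertk in cluster 19, while the dashed line exceeds every point for Scarb2.

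Mertk and Axl are receptor tyrosine kinases of the TAM family, and they had different profiles. Mertk was the sparser in counts, with 543 UMIs in all. Cluster 19 had 38.7 CPM (25.3–56.7), from 26 UMIs, cluster 0 had 24.6 CPM (21.9–27.4) and cluster 10 had 19.3 CPM (16–23). These were 10.9, 5.7 and 4.2 times the means of the others, with cluster 19 above cluster 0 by a factor of 1.58 (1.01–2.35) and cluster 0 above cluster 10 by a factor of 1.27 (1.03–1.59). Clusters 7 (9.4 CPM), 15 (3.05), 17 (2.24), 6 (1.78) and 8 (1.61) were lower, and no UMI was counted in cluster 18. Of the 11 B, T and NK cell clusters, 7 had 0 UMIs, and the highest was 2.57 CPM in cluster 14 from 2 UMIs.

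Axl was highest in cluster 0 at 69.8 CPM (65.3–74.5), then in cluster 10 with 53.8 CPM (48.2–59.9) and in the mature dendritic cell-like cluster 8 with 43.4 CPM (38.1–49.2). Each of these stood above the next, by a factor of 1.3 (1.14–1.47) for cluster 0 over 10 and 1.24 (1.05–1.47) for cluster 10 over 8. Clusters 15 (28.2 CPM), 19 (22.3) and 7 (20.5) were not separated, and clusters 17, 6 and 18 had 11.2, 8.63 and 1.84 CPM. The B, T and NK cell clusters ran from 0.86 to 10.1 CPM, with a median of 4.01. In cluster 8 Axl was 3.08 times the mean of the others and Mertk 0.292 times, and in cluster 19 Axl was 1.47 times and Mertk 10.9 times. The difference between the kinases in these 2 clusters was not tested. Tyro3, the third TAM kinase, had 23 UMIs over all clusters, too few to order them.

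The bridging ligands of the TAM kinases were also found among these cells. Gas6, which binds Axl and Mertk, was highest in cluster 0 at 38.7 CPM (35.3–42.2), which held 76.3% of its UMIs. Clusters 7, 10 and 19 had 11.6, 5.46 and 4.47 CPM of Gas6. Pros1, which encodes protein S, was highest in cluster 19 at 67 CPM (48.9–89.7), while cluster 0 had 26.3 CPM (23.5–29.2) and clusters 10 and 8 had 15.7 and 14 CPM. Cluster 0 thus had both ligands beside both kinases, as did clusters 7 and 10, with each of these genes at a lower level there. Cluster 19 had them too, with Pros1 and Mertk above cluster 0, Axl below it and Gas6 from only 3 UMIs. C1qa in the neutrophil-like cluster 7 stood at 16.8% of its level in cluster 0. The part of macrophage RNA in the levels of cluster 7 was not tested. Fibroblasts and smooth muscle cells also make Gas6, and their markers were highest in cluster 0. The part of their RNA in the Gas6 level was not tested. Timd4, a phosphatidylserine receptor of resident macrophages, was highest in cluster 19 (41.7 CPM), with 31.9 and 13.6 CPM in the dendritic cell-like clusters 17 and 8 and 3.39 in cluster 0.

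**Figure D3:**
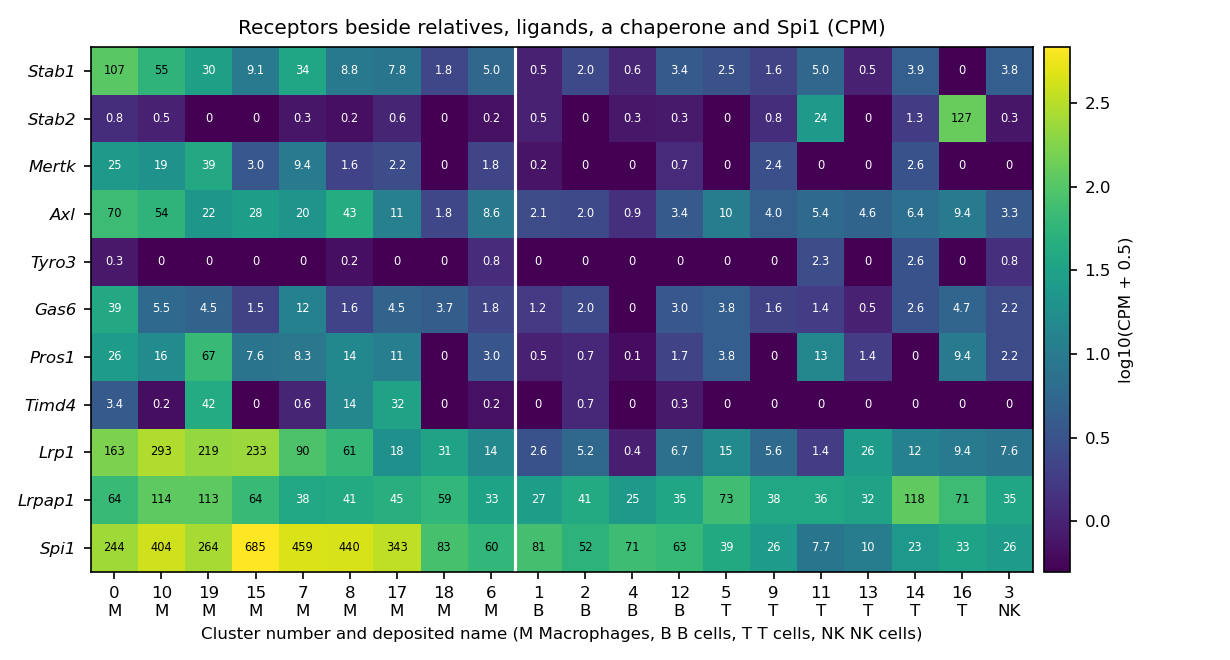
Receptors beside their relatives, ligands, a chaperone and the transcription factor gene Spi1. Rows are genes, columns the 20 clusters, cells give the CPM and colour its log10 after adding 0.5. Stab2 is highest in clusters 16 and 11 where Stab1 is low or at 0, Gas6 is highest in cluster 0, and Pros1 and Timd4 in cluster 19.

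The genes around these receptors were described with 8 lists, counting genes over 2-fold above or below the mean of the other clusters. The shares of all genes to read them against were, in clusters 0, 10, 15 and 19, 8.21%, 7.37%, 7.46% and 9.06% higher and 8.18%, 23%, 29.4% and 28.8% lower. Of 18 other scavenger and lipoprotein receptors tested, cluster 0 had 8 higher and 3 lower and cluster 10 had 5 and 5. Cluster 19 had 5 and 4 and cluster 15 had 1 and 11. Of the 8 in cluster 0, Vldlr, Scarf2 and Scara3 passed the UMI minimum for testing only through that cluster. Cluster 0 held 21 of 23, 21 of 33 and 15 of 28 of their UMIs. That these genes were higher there was thus largely fixed by the minimum. In clusters 0, 10, 19 and 15 the list had median log2 ratios of 0.32, 0.10, 0.40 and -0.79. The medians of all genes were -0.09, -0.29, -0.35 and -0.33. With a minimum of 50 UMIs per gene the medians of clusters 0 and 10 were 0.01 and 0.31, which turns their order. In cluster 15 the higher share was 5.56% of the list and the lower share 61.1%. Cd14, the lipopolysaccharide co-receptor, was highest in cluster 10 at 1059 CPM and stood at 967 in cluster 19. Cd5l, a secreted macrophage protein of the scavenger domain family, was at 372 CPM in cluster 19, where the other clusters averaged 2.36. Sorl1, a sorting receptor, was highest in the B cell cluster 2 at 352 CPM.

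Of 18 other efferocytosis receptors and bridging molecules, cluster 19 had 8 higher and 4 lower, cluster 0 had 7 and 2, cluster 10 had 7 and 4 and cluster 15 had 4 and 8. As shares of the list, 44.4%, 38.9%, 38.9% and 22.2% were higher, above the shares of all genes, and 22.2%, 11.1%, 22.2% and 44.4% lower, which in clusters 19 and 10 was not above the shares of all genes. The higher genes were not all shared. C1qa, C1qb and C1qc, which opsonise dying cells, were higher in clusters 0 and 19 but not 10. Havcr2, Thbs1, Cd300lb, Cd300lf and Cd300a were among the higher genes of cluster 10, and of these Thbs1 and Cd300a were higher in cluster 19 too. C1qa stood at 2070.1 CPM in cluster 19 and C1qb at 2402. Havcr1, a phosphatidylserine receptor, was at 73.7 CPM in the plasmacytoid dendritic cell-like cluster 18, where the others averaged 0.475, and Itgb3, an integrin chain, at 202 CPM in cluster 16. The engulfment machinery was flatter. Of 10 genes, 1 was higher in each of clusters 0, 10 and 19, in each case Dock1, a guanine nucleotide exchange factor, and 2 (Elmo2 and Crk) in cluster 15, with none lower in these 4 clusters. Ucp2, a mitochondrial carrier, was highest in cluster 17 at 978 CPM, Rac2, a small GTPase of blood cells, in cluster 18 at 971 and Rubcn, a regulator of autophagy and LC3-associated phagocytosis, in cluster 2 at 62.9.

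Receptor chaperones and lysosome partners stood high in cluster 10. There 7 of 10 were over 2-fold higher and 0 lower (median log2 ratio 1.20), against 5 in cluster 19 (0.86), 2 in cluster 0 (0.64) and 2 in cluster 15 (0.47). The protease Ctsd was at 1325 CPM in cluster 10, the cholesterol carrier Npc2 at 1126 and the tetraspanin Cd63 at 469. Npc1, the membrane partner of Npc2, was highest in cluster 18 at 206 CPM. Of 9 genes that handle lipid after uptake, 5 were higher and 1 lower in cluster 10 (median 1.40), among them Fabp5, a fatty acid carrier, at 1613 CPM and the lipid droplet coat gene Plin2 at 749. In clusters 15 and 19, the top clusters of Cd36, 3 were higher and 1 lower, and Fabp4 stood at 956 CPM in cluster 19 and 569.9 in cluster 15, against 111 in cluster 10. Cluster 0 had 1 higher and 1 lower. Dgat1, a triglyceride synthesis enzyme, was highest in cluster 16 at 1031 CPM.

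Of 8 inhibitory or shedding genes, Sirpa and Pilra were higher in clusters 0, 10 and 15 and Pilra alone in cluster 19, with Pilra, an inhibitory receptor, highest in cluster 15 at 209.5 CPM. Cd47, the signal read by Sirpa, was highest in cluster 14 at 1376 CPM, as was the chaperone Calr at 798, and Siglecg, a B cell inhibitory lectin, in cluster 2 at 736. Of 15 transcription factors tied to these receptors, 9 were higher in cluster 10 (median 1.41), 7 in cluster 15 (0.72), 5 in cluster 0 (0.36) and 4 in cluster 19 (0.06), with 3 lower in cluster 19 only among these clusters. Spi1 was highest in cluster 15 at 685 CPM, as were Klf4 at 381 and the liver X receptor gene Nr1h3 at 96.8. Tfec, a factor of the MITF family, was at 16.2 CPM in cluster 10 against 0.826 elsewhere. Of 9 proteins that bind or traffic oligonucleotides other than the 10 receptors, 2 were higher and 2 lower in cluster 10, 1 and 3 in cluster 19, 1 and 2 in cluster 0 and 0 and 3 in cluster 15. The lower shares of this list, 22.2%, 33.3%, 22.2% and 33.3%, were near those of all genes in clusters 10, 19 and 15. Hmgb1 and Ncl, nuclear proteins that also bind nucleic acids, were highest in the proliferating-like cluster 6 at 4182 and 1100.1 CPM, and Asgr2, a chain of the asialoglycoprotein receptor, in cluster 8 at 19.4.

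The profiles of the receptors resembled each other to different degrees. Over the 20 clusters, Pearson's r of log2(CPM + 0.5) ran from 0.34 to 0.89 for the 36 pairs of the 9 receptors with at least 200 UMIs, with a median of 0.67. Mertk and Msr1 were the most alike pair (0.89), followed by Mertk and Stab1 (0.87) and Msr1 and Stab1 (0.85), and Cd36 and Scarb2 the least alike (0.34). These r are descriptions over 20 clusters that share 2 libraries and differ in depth. Of the 27 values of r between these receptors and the transcription factor genes Spi1, Nr1h3 and Pparg, the highest was that of Spi1 with Cd68 (0.89). Among 10685 genes, those most like Cd36 were Ampd3 (0.86), Rab31 (0.85) and Gm21188 (0.84), and those most like Scarb1 were I830077J02Rik (0.89), Tifab (0.88) and Zfp710 (0.88). For Scarb2 they were Cebpg (0.90), Slc39a1 (0.89) and Slc6a6 (0.86). Msr1 was most like Ms4a8a (0.91), F7 (0.91) and C3ar1 (0.90), and Cd68 most like Il13ra1 (0.96), Mpeg1 (0.95) and Gpr35 (0.95). The genes nearest to Stab1 were C3ar1 (0.94), the lipid receptor gene Trem2 (0.93) and the chemokine gene Ccl7 (0.92). Those nearest to Lrp1 were Emilin2 (0.93), Ms4a6d (0.92) and Csf1r (0.92), which encodes the macrophage growth factor receptor. Those near Mertk included Sash1 (0.91) and C1qb (0.91), and Axl was most like Dab2 (0.93), Ccl9 (0.91) and Tlr2 (0.91). The first 3 places changed under other measures, where each receptor kept 0 to 2 of its 3 genes by rank correlation or without clusters 2, 5, 14 and 16.

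Low receptor levels in B, T and NK cell clusters were set beside C1qa, a gene of macrophages that serves here as a reference for RNA from other cells. C1qa stood at 1965 CPM in cluster 0 and at 0.944% of that in the B cell cluster 1, 1.6% in cluster 2 and 0.537% in the T cell cluster 13. Cluster 1 had 79 C1qa UMIs beside 2 of Stab1, 1 of Mertk and 43 of Cd36. Per 100 C1qa UMIs, Cd36 stood at 54.4 in cluster 1, 58.3 in cluster 2, 5.19 in cluster 3, 128 in cluster 4 and 26.1 in cluster 13. In cluster 0, which is not the top cluster of Cd36, it stood at 2.5. Other genes of macrophages exceeded their cluster 0 ratio in some of these clusters and fell below it in others. Cd68 stood at 35.4 in cluster 1 and 72.9 in cluster 2 against 11.1, and the mannose receptor gene Mrc1 at 37.5 in cluster 2 against 12.5. The lysozyme gene Lyz2 stood at 481 in cluster 2 and 739 in cluster 13 against 292. Below their cluster 0 ratios were Cd14 in cluster 1 (24.1 against 29.5) and Lyz2 in cluster 3 (263). Mrc1 was below its ratio in clusters 3 (6.6) and 13 (0). The 23 C1qa UMIs of cluster 13 stood beside 46 of Scarb1 and 56 of Lrp1, against 0.984 and 8.28 per 100 C1qa UMIs in cluster 0, and Cd68 in cluster 13 was at 34.8 against the same 11.1. The part of RNA from other cells in these levels was not tested. The mean depth was 13799.9 UMIs per cell in cluster 0, 5925 in cluster 1, 2296 in cluster 2 and 8891 in cluster 13.

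The share of cells in clusters 0, 10, 15 and 19 together was 23.1% of the saline library (exact Clopper-Pearson 95% interval 21.5–24.7, 633 cells) and 16.9% of the nt-LNA library (15.9–18, 825 cells). The ratio of nt-LNA to saline was 0.734 (0.661–0.815). When only cells of the Macrophages clusters were counted it was 1.03 (0.93–1.15), an interval that holds 1. With that denominator the ratio of cluster 0 alone was 1.28 (1.12–1.47) and that of cluster 10 alone 0.565 (0.455–0.70), on opposite sides of 1. Cluster 15 came to 0.951 (0.665–1.36), and cluster 19, from its few cells, reached 3.49 (1.29–11.8). These intervals cover counting of cells in 1 library per treatment. To see what the mix of clusters alone would do to the receptors, the UMIs per cell of each cluster, pooled over both libraries, were weighted by each library's share of cells. This takes the content of a cluster as equal in both libraries, which was not tested, and the results are calculated levels and not measured ones.

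By that calculation the median ratio of the nt-LNA mix to the saline mix was 1.03 over all genes tested. The share of all genes that were lower was not counted, so each receptor is given with its own ratio. The calculation moves only with the shares of clusters. Clusters 0, 10, 15 and 19, chosen with the receptor levels known, had together 0.734 times the saline share of cells. Msr1 went from 27 CPM in the saline mix to 17.4 in the nt-LNA mix, a ratio of 0.644. Cd68 went from 157 to 111 (0.707) and Lrp1 from 92.4 to 67.5 (0.731). Msr1, Cd68 and Lrp1 are the receptors led by cluster 10, whose share of cells was 0.401 times as large in the nt-LNA library. The ratios of Axl, Mertk, Stab1, Scarb1, Cd36 and Scarb2 were 0.816, 0.842, 0.855, 0.855, 0.916 and 0.928, beside a median of 1.03 over all genes tested. Marco went from 0.69 to 1.45 CPM (2.1), a value that rests on the 5 and 22 cells of cluster 19. Within the Macrophages clusters alone, Msr1 was still lower at 0.758, Cd68 at 0.82 and Lrp1 at 0.85, whereas Cd36 came to 1.03 and Stab1 to 1.0. The median over all genes tested was 1.02 there.

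**Figure D4:**
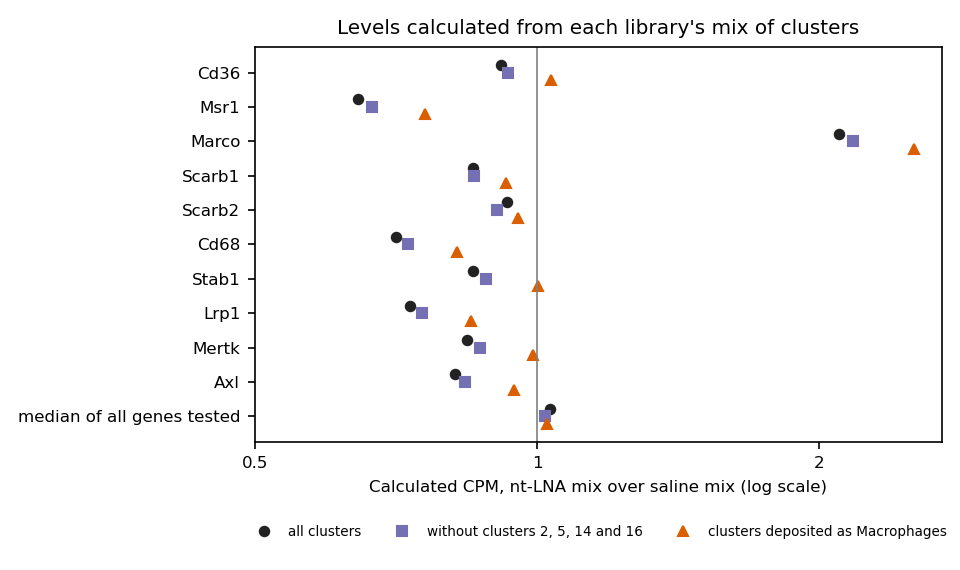
Receptor levels calculated from the mix of clusters in each library. The x axis is the calculated CPM of the nt-LNA mix over that of the saline mix on a log scale, and symbols are the 3 sets of clusters. With all clusters Marco alone lies right of 1 among the receptors and Msr1, at 0.644, is the lowest, and within the Macrophages clusters Cd36 and Stab1 lie at or just above 1.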

How the data were processed

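The samples were 2 single-cell libraries, 1 from saline and 1 from nt-LNA mice. The deposited counts are whole-number UMIs per gene, added up by the authors within each of 20 clusters across both libraries. A deposited cell table, per the file headers, gives the cluster number of each cell and its cell type name, an identity and not a score, and its cell names give the library. The submitters' processing notes name Cell Ranger 2.1.1, Seurat and build mm9. The sources used here do not say how cells were filtered and clustered or whether doublets were removed. The libraries shared 2 barcodes. Doublets were not called, because cluster sums hold no single cells.

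CPM is the count over the cluster's total. The ratio divides it by the average CPM of the remaining 19 clusters, and high or low means over 2-fold, for genes with at least 20 UMIs. Log2 ratios of lists use a pseudocount of 0.5 CPM. Likeness is Pearson's r for genes with at least 200 UMIs. Poisson, Clopper-Pearson and conditional ratio intervals are exact at 95% and cover counting error only. Where a gene had 0 UMIs, the printed floor is 3 counts over that cluster's total. Cells are not replicates and n = 1 library per treatment, so no p-value was computed. Clusters were built on the same genes, so levels describe them.

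The receptors, gene lists and tests were chosen with earlier results of these data known. The rule for names takes all 10 receptors, the 2 genes of each list with the most UMIs and the 2 that reach the largest ratio in any cluster (minimum 50 UMIs), the 3 genes most like each receptor, and Ptprc and Cd3e as a check of the sort. One gene that the rule takes is not reported here. Relatives and ligands (Tyro3, Gas6, Pros1, Timd4, Lrpap1), markers set beside a result (C1qa, Lyz2, Mrc1, Pf4 and platelet genes), and genes listed as higher in a cluster, were named outside it after their values were seen. A cluster was called X-like from at least 3 markers among its 50 leading genes, with no other list ahead among the leading 10 and no leading genes against the name. Promoters were matched by symbol to RefSeq (GRCm38.p6), another build than mm9, so no position of the files was used. Calculations used scipy 1.17.1, pandas 2.3.3 and numpy 2.4.6 under Python 3.11.15, figures matplotlib 3.10.9, and TMM factors, an alternative scale, in edgeR 4.0.16, and were tested on simulated data. The authors' upper-quartile scaled table was not used. Alternatives changed the reference clusters, the scale, the fold, the minimum count and the pseudocount.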

Additional observations from a re-analysis of the deposited data

How the results depend on the processing

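No paired analysis was possible because there is 1 library per treatment and the counts pool both. Counts of receptors over 2-fold higher were within 1.5 times the main count in 37 of 47 alternatives. Among the 37 is the setting without a minimum of UMIs, for each of clusters 0, 10, 15 and 19. It could not change a count, because all 10 receptors had at least 20 UMIs. Against the median of the other clusters, cluster 0 and cluster 15 had 8 each (main 5 and 4) and the B, T and NK cell clusters 5 (main 0). Against the other Macrophages clusters, cluster 0 had 3. Leaving cluster 6 out of that reference, a setting added after seeing the data, clusters 0, 10 and 15 had 3, 3 and 2 (main 5, 7 and 4). At a fold of 4, cluster 0 had 3. Without clusters 2, 5, 14 and 16 in the reference, 1 receptor was high in a B, T or NK cell cluster. By UMIs per cell cluster 19 had 10 (main 6), Msr1, Lrp1 and Scarb2 were highest there, and Scarb2 in cluster 14 came to 0.683 times the mean of the others. With TMM factors, too, Scarb2 was highest in cluster 19. The cause of these moves was not tested. The shares of all genes past the fold were not counted under these alternatives, so their counts of receptors have no background.

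The nt-LNA over saline ratio for the share of clusters 0, 10, 15 and 19 was 1.03 without the B, T and NK cell clusters in the denominator, with an interval that holds 1 (0.93–1.15). It was 0.859 without clusters 2, 5, 14 and 16, also added after seeing the data. Within the Macrophages clusters the calculated ratios of Cd36 and Stab1 reversed to 1.03 and 1.0, beside a median of 1.02 over all genes tested. Of the ratios of each receptor in its top cluster, 44 of 69 alternatives moved beyond counting error and 24 did not. List medians moved in 8 of 64, and with a minimum of 50 UMIs those of the other scavenger receptors turned their order between cluster 0 (0.01) and cluster 10 (0.31). Depth limits the small clusters most, since 3 counts are 14.1 CPM in cluster 16 and 5.53 CPM in cluster 18. Cluster 19 has only 27 cells, and its levels can change with a few of them.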
